A study of Mus musculus with 21 samples.

Results

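The genes described here are those of shelterin, the protein complex that covers telomeres, and of the first steps of the response to DNA breaks. Of the 27179 genes counted in each library, 10 were taken by name, matched through their Entrez Gene numbers: the shelterin genes *Acd*, *Tinf2*, *Terf1*, *Terf2*, *Pot1a* and *Pot1b*, and the damage response genes *Rad50*, *Nbn*, *Atm* and *H2ax*. All 10 were found in all 21 libraries and all 10 passed the filter on low counts. mRNA was sequenced from podocyte fractions of individual male wildtype C57BL/6J mice, captured magnetically through nephrin antibodies after the kidney cortex had been digested. The young group held 6 untreated mice of 4 months by the labels, and all were used. The methods of the study give a lower number of mice of that age, a mismatch that bears on every comparison with young mice. The saline group held 7 middle-aged mice of 19.5 months that had been injected with saline, and the MCC950 group held 8 middle-aged mice of the same age that had received 10 mg/kg of MCC950, an inhibitor of the NLRP3 inflammasome, in intraperitoneal injections over 6 weeks from 18 months of age. The young mice were not injected, so age and injection cannot be told apart in comparisons with them.

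Telomeres are the repeated TTAGGG ends of chromosomes, and without a cover they would be read by the cell as broken DNA. TERF1 and TERF2 bind the double-stranded repeat, TINF2 joins them, and ACD (also called TPP1) links TINF2 to the POT1 proteins, which hold the single-stranded overhang. Mice carry separate genes for POT1, *Pot1a* and *Pot1b*. When DNA breaks, or when a telomere loses its cover, the complex of MRE11, RAD50 and NBN binds the end and recruits the kinase ATM, which phosphorylates the histone H2AX at its tail. That phosphorylated form, known as gamma-H2AX, is a widely used mark of damage and of senescent cells. Podocytes are terminally differentiated cells of the glomerular filter that are hardly replaced in adult life. Most of this signalling works through protein modification, which mRNA counts do not measure.

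The libraries held from 27375870 to 36827823 counts in the young group, from 45772937 to 84876399 in the saline group and from 35440472 to 58247271 in the MCC950 group, and the saline libraries were all deeper than the young ones (two-sided exact permutation test, p = 0.00117, adjusted p = 0.00400 over 15 tests). Outside mitochondrial genes the totals were 5804891 to 13269290 in young, 14362648 to 27818925 in saline and 16118731 to 28569185 in MCC950 libraries. By that measure all saline and all MCC950 libraries were deeper than every young one. The lowest count of any member in a library was 48 reads, for *Terf1*, and the highest 1596, for *Pot1b*. No gene of a list of 15 podocyte markers was at 0 in any library, but the summed level of the list, in CPM (counts scaled to the TMM-normalised library size), was 881 to 1744 in young libraries against 412 to 653 in saline libraries, and 14 of the 15 markers were lower in saline than in young. Markers of other cells were present too: 12 proximal tubule markers summed to 1732 to 7331 CPM in young, 1960 to 4719 in saline and 2895 to 8664 in MCC950 libraries, and 12 macrophage and myeloid markers to 454.5 to 2258, 1659 to 3971 and 1096 to 3945 CPM. For the loop of Henle and distal tubule, 8 markers summed to 3483 to 4855 CPM in young, 3459 to 5111 in saline and 2603 to 4709 in MCC950 libraries. In such bulk samples, fewer cells of a type and less RNA per cell cannot be told apart.

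Levels of different genes were compared per length of exon, in RPKM, which divides the CPM by the exon length in kilobases. The length joined the exons of all annotated transcripts of a gene, which can exceed the length of the transcripts expressed. The order below therefore depends on this choice of length. *H2ax* had the highest level per length in all 3 groups, with a median of 5.63 RPKM in young, 5.89 in saline and 6.57 in MCC950 libraries, and its range did not overlap that of the next gene in any group. *Terf2* and *Nbn* followed in the young libraries with medians of 2.74 and 2.73 RPKM, then *Pot1b* with 2.56, *Acd* with 1.84, *Tinf2* with 1.76 and *Rad50* with 1.52, and the ranges of neighbours in this order overlapped. *Atm* (1.13), *Terf1* (0.812) and *Pot1a* (0.588) stood below them, and their neighbouring ranges overlapped as well. In the saline libraries *Pot1b* had the second place of the order, with a median of 3.68 RPKM, and its range overlapped that of *Terf2*, the next in order. *Pot1a* had the lowest median per length in all 3 groups, 0.617 RPKM in saline and 0.521 in MCC950 libraries. Its joined exon length was 8.669 kb, against 4.608 kb for *Terf1*, and in CPM its young median (5.10) was above that of *Terf1* (3.74).

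**Figure D1:**
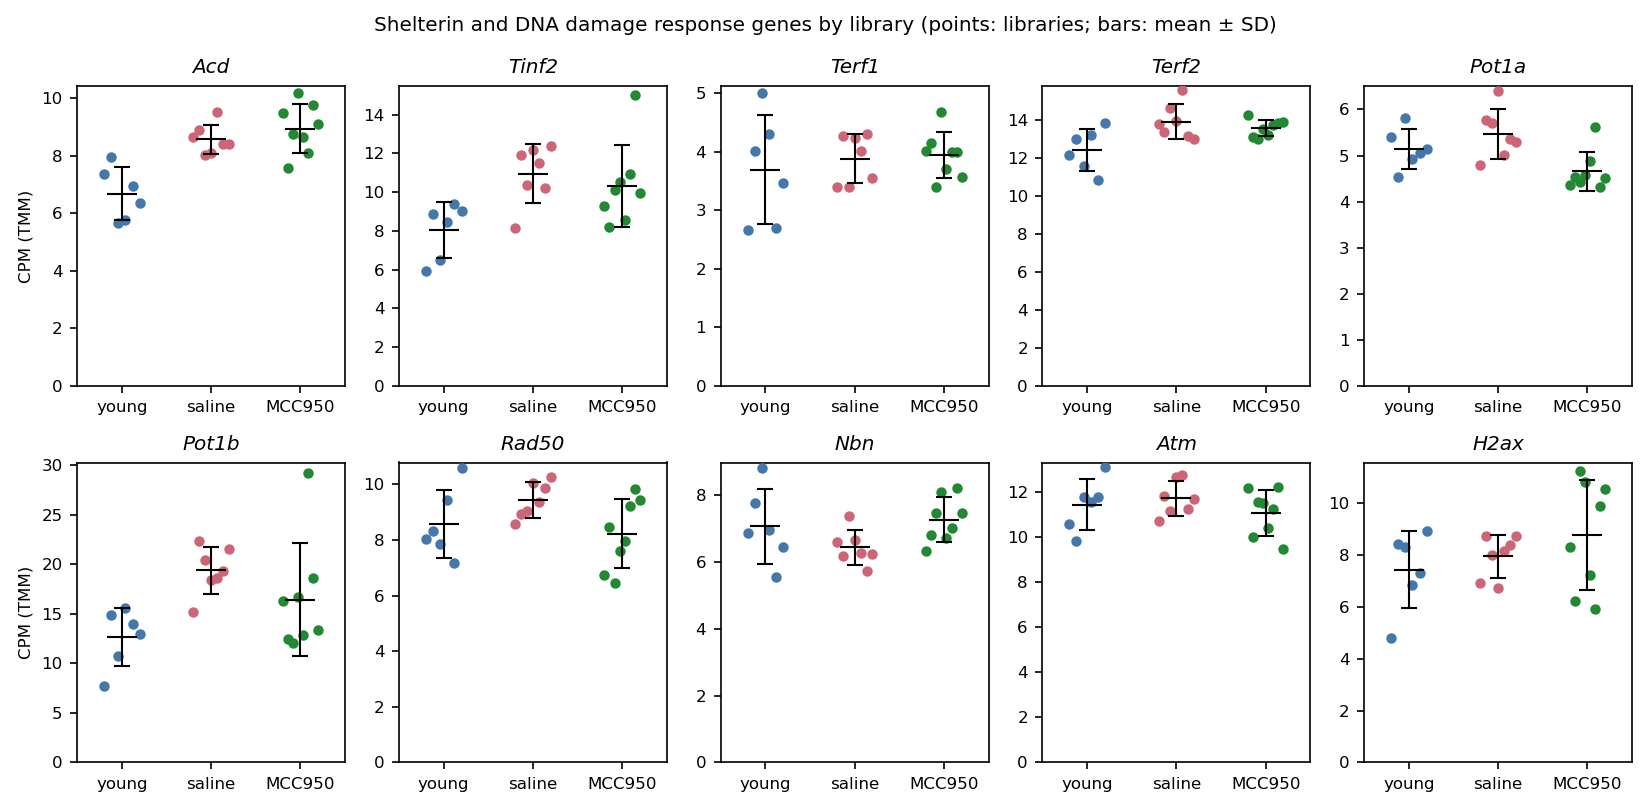
Level of each member in CPM (TMM-normalised, vertical axes from 0) in 6 young, 7 saline and 8 MCC950 libraries. Each point is a library and the bars give the mean ± SD. The saline points of *Acd* all lie above the young points, the lowest at 8.04 CPM against the highest young point at 7.96, while those of *Atm*, *Terf1* and *H2ax* lie within the range of the young points.

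The first comparison asked how podocyte fractions of middle-aged mice differed from those of young mice. Of the 10 members, *Acd*, *Tinf2* and *Pot1b* rose in the saline group against the young group and none fell (edgeR's quasi-likelihood test, Benjamini-Hochberg adjusted p under 0.05), where 24.6% of the 16377 genes tested passed in either direction and 12.2% were higher. The log2 fold change was above 0 in 9 of the 10 members, as in 52.7% of all genes tested, and 0 members had an unadjusted p under 0.05 with a change of over 2-fold, against 6.96% of all genes. All 3 belong to shelterin, and 0 of the 4 damage response genes passed. The median log2 fold change was 0.26 over the 6 shelterin genes and 0.07 over the 4 damage response genes, against 0.02 over all genes tested. Some of the members, *Acd* among them, appear in the study's own displays of the senescence-related genes that changed most in these libraries, so their direction is not independent evidence.

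*Acd* encodes the link between TINF2 and the POT1 proteins, which also recruits telomerase. It lies on chromosome 8 (GRCm38.p6, chr8:105698155-105701228, minus strand, Entrez Gene 497652). Its level was 5.65 CPM in the lowest, 6.66 in the median and 7.96 in the highest young library, and 8.04, 8.41 and 9.52 CPM in the saline libraries. All 7 saline libraries lay above the highest young one, a separation in the higher direction that 4.51% of the genes tested had, and 9.37% in either direction. *Acd* rose by a log2 fold change of 0.36 (standard error 0.09, edgeR adjusted p = 0.00439), or 28.4%. It kept an adjusted p between 0.00361 and 0.0230 when any 1 library was left out. With libraries thinned to the depth of the shallowest outside mitochondrial genes, *Acd* passed narrowly (log2 fold change 0.30, edgeR adjusted p = 0.0464).

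The 5′ ends of *Acd* and the opposite-strand gene *Pard6a*, a cell polarity gene, overlap by 81 bases, with starts 80 bases apart, and the 3′ part of *Acd* overlaps *Carmil2* by 41 bases. The strand setting of the counting was not given in the sources used here, so reads of these stretches could have been counted for either gene or for neither. *Pard6a* had a log2 fold change of 0.03 between saline and young (edgeR adjusted p = 0.902) and *Carmil2* of 0.70 (adjusted p = 0.149). The RefSeq promoter of *Acd*, 250 bases before the start and 50 after it, is shown because *Acd* was the member with the lowest adjusted p (chr8:105701179-105701478, minus strand, printed 5′ to 3′ of the gene). Capitals mark the CCAAT box on either strand (CCAAT or ATTGG), which occurs 2 times here.

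*Acd* promoter: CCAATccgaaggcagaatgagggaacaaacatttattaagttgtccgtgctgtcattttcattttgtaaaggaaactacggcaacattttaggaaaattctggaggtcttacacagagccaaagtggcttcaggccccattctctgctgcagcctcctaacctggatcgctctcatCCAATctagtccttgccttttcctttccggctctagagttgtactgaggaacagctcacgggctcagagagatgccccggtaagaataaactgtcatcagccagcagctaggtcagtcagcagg

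Neither the telomeric repeat TTAGGG nor the GC box GGCGGG, searched on both strands, occurred in the *Acd* window. CCAAT occurred in 37.4% of the 32851 RefSeq promoter windows of this length, GGCGGG in 35.3% and TTAGGG in 10.6%. Of the 10 members, 6 had a window in the table.

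*Tinf2* encodes the shelterin hub that bridges both TERF proteins to ACD. Its level was 5.95 CPM in the lowest, 8.67 in the median and 9.38 in the highest young library, and 8.15, 11.5 and 12.4 CPM in the saline libraries. The groups overlapped through a single saline library, replicate 1, and the other 6 lay above all young libraries. The log2 fold change of *Tinf2* was 0.45 (standard error 0.14, edgeR adjusted p = 0.0204), a rise of 36.9%. *Tinf2* (chr14:55676208-55682159, minus strand, Entrez Gene 28113) lies over its whole length of 5952 bases within the opposite-strand gene *Gmpr2*, a guanosine monophosphate reductase, which rose too (log2 fold change 0.28, edgeR adjusted p = 0.0246), and reads of these genes cannot be told apart where their exons overlap if strand was not used. The call for *Tinf2* was lost without young replicate 1 (adjusted p = 0.0549), young replicate 3 (0.0746), saline replicate 2 (0.0576) or saline replicate 7 (0.0555).

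*Pot1b*, one of the mouse POT1 genes, is known for limiting the trimming of the telomere end. Its level was 7.72 CPM in the lowest, 13.5 in the median and 15.6 in the highest young library, and 15.2, 19.4 and 22.4 CPM in the saline libraries. Again 6 of 7 saline libraries lay above all young ones, and saline replicate 1 was the exception. *Pot1b* had the largest rise of the members, with a log2 fold change of 0.62 (standard error 0.19, edgeR adjusted p = 0.0194), or 53.8%. Without young replicate 3 its adjusted p was 0.0558.

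*Pot1a*, the paralog known for holding back damage signalling at telomeres, had 4.54, 5.10 and 5.81 CPM as lowest, median and highest values in young libraries and 4.80, 5.35 and 6.40 CPM in saline libraries. The groups overlapped almost wholly, and its log2 fold change was 0.09 (edgeR adjusted p = 0.486, 95% interval -0.09 to 0.26). The log2 ratio of *Pot1b* to *Pot1a* within a library, a value chosen after the levels had been seen, ranged from 0.51 to 1.71 in young and from 1.53 to 2.03 in saline libraries. Its means were 1.26 and 1.82, and 5 of 7 saline libraries lay above all young ones. Since the values of both genes had prompted it, the ratio is given as a description, and a test of it on these same libraries would carry no weight.

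The promoters of *Pot1a* (chr6:25809169-25809468, minus strand) and *Pot1b* (chr17:55712587-55712886, minus strand, the first of 2 entries) are shown because *Pot1b* was called in the first comparison and its paralog *Pot1a* in the second. Capitals mark the telomeric repeat motif, the CCAAT box and the GC box, as spelled above, on either strand.

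*Pot1a* promoter: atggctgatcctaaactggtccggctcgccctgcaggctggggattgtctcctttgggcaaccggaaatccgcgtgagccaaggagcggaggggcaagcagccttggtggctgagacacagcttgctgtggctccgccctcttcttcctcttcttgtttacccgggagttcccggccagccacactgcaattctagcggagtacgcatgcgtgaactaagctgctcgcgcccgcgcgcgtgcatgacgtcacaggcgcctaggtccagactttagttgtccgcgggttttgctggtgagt

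*Pot1b* promoter: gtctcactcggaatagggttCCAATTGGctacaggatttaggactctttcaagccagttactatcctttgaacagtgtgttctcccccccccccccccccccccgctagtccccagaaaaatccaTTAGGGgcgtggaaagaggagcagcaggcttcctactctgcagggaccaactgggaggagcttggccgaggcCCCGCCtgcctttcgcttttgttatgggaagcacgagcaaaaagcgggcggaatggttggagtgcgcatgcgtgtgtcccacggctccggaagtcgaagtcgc

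None of the 3 motifs occurred in the *Pot1a* window. The *Pot1b* window held 1 TTAGGG, 2 CCAAT matches that overlap each other on opposite strands, and 1 GGCGGG. These matches are letters in a window and say nothing of binding.

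The remaining shelterin genes bind double-stranded telomeric DNA. *Terf2*, whose protein protects the telomere loop and holds back ATM, ranged from 10.8 to 13.8 CPM in young libraries (median 12.6) and from 13.0 to 15.6 in saline libraries (median 13.8). In 3 of 7 saline libraries it was above all young ones, and its log2 fold change of 0.16 did not pass (standard error 0.06, edgeR adjusted p = 0.0597, 95% interval 0.03 to 0.29). *Terf2* passed with a stricter count filter (adjusted p = 0.0442), with thinned libraries (0.0487) and without young replicate 6 (0.0356). *Terf1*, which regulates telomere length and replication, ranged from 2.66 to 5.00 CPM in young and from 3.39 to 4.30 in saline libraries, so that its saline values lay within the young range. Its log2 fold change was 0.07 (edgeR adjusted p = 0.746, 95% interval -0.20 to 0.34).

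None of the damage response members passed in this comparison. *Rad50*, which tethers broken ends, had 7.19, 8.18 and 10.6 CPM as lowest, median and highest young values and 8.56, 9.37 and 10.2 CPM in saline libraries. Its log2 fold change was 0.14 (edgeR adjusted p = 0.349, 95% interval -0.08 to 0.35). *Nbn*, the subunit that recruits ATM, was the only member with a lower mean in saline libraries, 6.44 ± 0.515 CPM (SD, n = 7) against 7.07 ± 1.12 CPM (SD, n = 6), a difference that did not pass (log2 fold change -0.14, edgeR adjusted p = 0.293, 95% interval -0.33 to 0.05).

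*Atm* itself, the kinase at the head of the pathway, ranged from 9.81 to 13.1 CPM in young libraries and from 10.7 to 12.7 in saline libraries. Its log2 fold change was 0.04, with a 95% interval of -0.12 to 0.19 (edgeR adjusted p = 0.772). Its start lies 61 bases from that of the opposite-strand gene *Npat*, a coactivator of histone genes, which had a log2 fold change of -0.17 (edgeR adjusted p = 0.176). *H2ax*, the histone that ATM marks, ranged from 4.80 to 8.91 CPM in young libraries (median 7.80) and from 6.71 to 8.71 in saline libraries (median 8.15). Its log2 fold change was 0.10 and its 95% interval, -0.23 to 0.43, was the widest of the damage response members (edgeR adjusted p = 0.696).

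**Figure D2:**
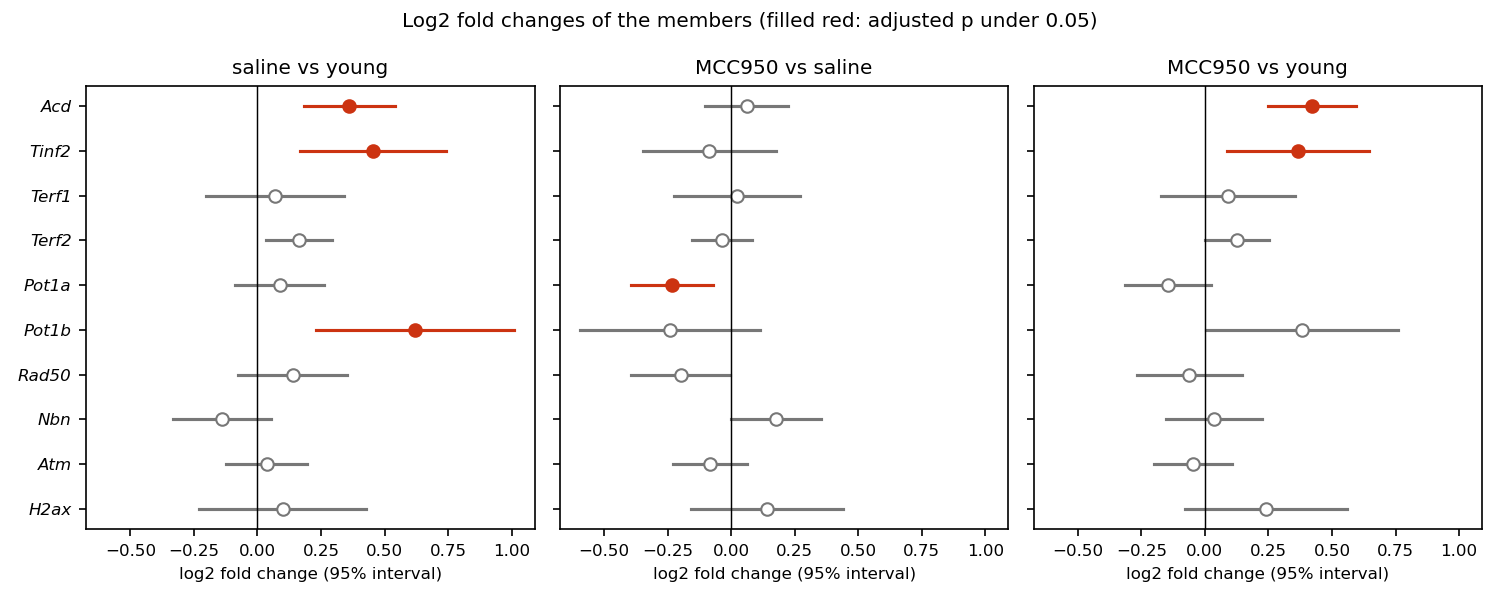
Log2 fold change of each member in the 3 comparisons (horizontal axes) with its 95% interval from the edgeR fit. Filled red points passed an adjusted p under 0.05: *Acd* (0.36), *Tinf2* (0.45) and *Pot1b* (0.62) for saline against young, *Pot1a* (-0.23) for MCC950 against saline, and *Acd* (0.42) and *Tinf2* (0.37) for MCC950 against young.

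Markers of other cell types moved with the same groups. The mean log2 CPM of the 12 macrophage and myeloid markers was 5.88 in young and 6.91 in saline libraries (two-sided exact permutation test, p = 0.00699, adjusted p = 0.0150 over 15 tests), with 5 of 7 saline libraries above all young ones. All 12 markers had a log2 fold change above 0, and 5 passed in edgeR. With the mean of these markers as a score in the fit, *Acd* kept its rise (log2 fold change 0.40, edgeR adjusted p = 0.00996), while *Tinf2* (0.23, adjusted p = 0.240) and *Pot1b* (0.25, adjusted p = 0.287) no longer passed. The podocyte score was lower in every saline library than in any young one (means of 3.85 and 5.35, two-sided exact permutation test, p = 0.00117), so this score and age cannot be told apart. With it in the fit the number of all genes called went from 4034 to 0, so the loss of the members says nothing of them in particular. The log2 fold change of *Acd* was then 0.0033 (edgeR adjusted p = 0.998), that of *Tinf2* 0.23 (0.840) and that of *Pot1b* 0.56 (0.743). In the T cell list and in the list of B and plasma cells all 10 markers had a log2 fold change above 0, and 5 of 10 passed. Of other lists, 9 of 10 endothelial, 6 of 9 mesangial and smooth muscle and 5 of 8 collecting duct markers passed as lower. Of all genes tested, 24.6% passed in either direction. The B and plasma cell markers summed to 379 to 884 CPM in young and 5985 to 9567 CPM in saline libraries. Their score was 3.20 to 5.18 in young and 5.60 to 6.46 in saline libraries, without overlap. The T cell score, -1.24 to -0.080 in young and 0.14 to 1.18 in saline libraries, did not overlap either. Neither of these lymphoid scores was fitted as a covariate. The part of these cells in the rise of the members was not tested beyond these fits.

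**Figure D3:**
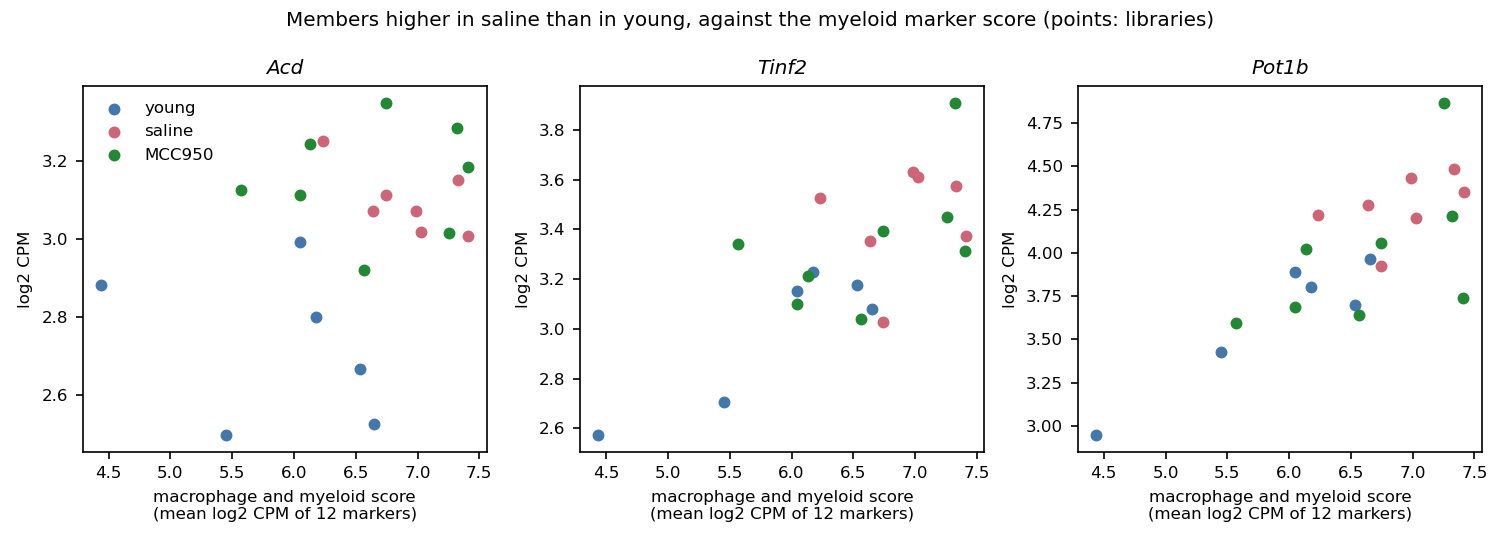
Log2 CPM of *Acd*, *Tinf2* and *Pot1b* (vertical axes) against the mean log2 CPM of 12 macrophage and myeloid markers (horizontal axes), with 1 point per library of the young, saline and MCC950 groups. The young library with the lowest score also has the lowest *Tinf2* (5.95 CPM) and *Pot1b* (7.72 CPM). For *Acd* all saline points lie above all young points, whatever their scores.

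The genes whose levels ran closest to the 3 risen members over the 21 libraries are given as a description, since libraries share groups and cell make-up. *Pot1b* ran closest with *Abi3* (Pearson r = 0.958, Spearman rho = 0.961), *Itgb2* (0.951 and 0.930), a leukocyte integrin subunit, and *Gsap* (0.934 and 0.901). *Tinf2* ran closest with *Sp140* (0.918 and 0.891), a nuclear protein of immune cells, *Kcnab2* (0.913 and 0.849) and *Syk* (0.905 and 0.890), a kinase of immune receptor signalling. *Acd* ran closest with *Gnl1* (0.939 and 0.931), with a gene number that has no name here (0.895 and 0.886) and with *Thy1* (0.893 and 0.836).

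The wider pathway was read from lists of genes by role. Beside the counts for saline against young stands the 24.6% of all genes tested that passed in either direction, with 12.2% higher. Of 20 tested telomere partners, 3 rose and 2 fell between young and saline libraries, with *Ten1*, of the CST complex that fills in telomere ends, at a log2 fold change of 0.38 (edgeR adjusted p = 0.00286), the helicase *Blm* at 0.70 (0.0200) and the tankyrase *Tnks2* at -0.20 (0.00503). *Terf2ip*, which encodes the RAP1 protein bound to TERF2 and completes shelterin, had a log2 fold change of -0.09 (edgeR adjusted p = 0.460). Of 21 damage sensors and kinases, 3 rose and 0 fell: *Kat5* (0.28, adjusted p = 0.00519), the acetyltransferase that activates ATM, *Topbp1* (0.42, 0.0134), an activator of ATR, and *Rad9a* (0.39, 0.0482), of the 9-1-1 clamp. *Mre11a*, the partner of *Rad50* and *Nbn*, did not pass (0.26, adjusted p = 0.0855), nor did *Atr* (0.03, 0.886), *Chek1* (0.45, 0.490), *Chek2* (-0.06, 0.866), *Mdc1* (0.04, 0.822), which binds marked H2AX, *Trp53bp1* (-0.13, 0.120) or *Prkdc* (-0.10, 0.467).

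Among the repair genes, 1 of 12 of end joining rose, *Polm* (log2 fold change 0.35, edgeR adjusted p = 0.00891), and 3 of 14 of homologous recombination, *Brca2* (0.78, 0.000465), *Sem1* (0.39, 0.00133) and *Dna2* (0.59, 0.00761). Of 20 p53 targets, 3 rose and 3 fell, with a median of -0.01: the pro-apoptotic *Bax* was at 0.48 (adjusted p = 0.00235), *Fas* at -0.58 (0.00342) and the ribonucleotide reductase subunit *Rrm2b* at -0.43 (0.00129). Of the 5 other H2A variants, *Macroh2a1* rose (0.30, 0.00768). Of 15 proliferation genes, 7 rose and 0 fell, with a median of 0.44, the replicative helicase subunits *Mcm6* (0.69, 0.000749), *Mcm7* (0.44, 0.00290) and *Mcm5* (0.74, 0.0106) among them. *Brca2* and *Dna2* also act in dividing cells, and the part of dividing cells in these values was not tested.

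**Figure D4:**
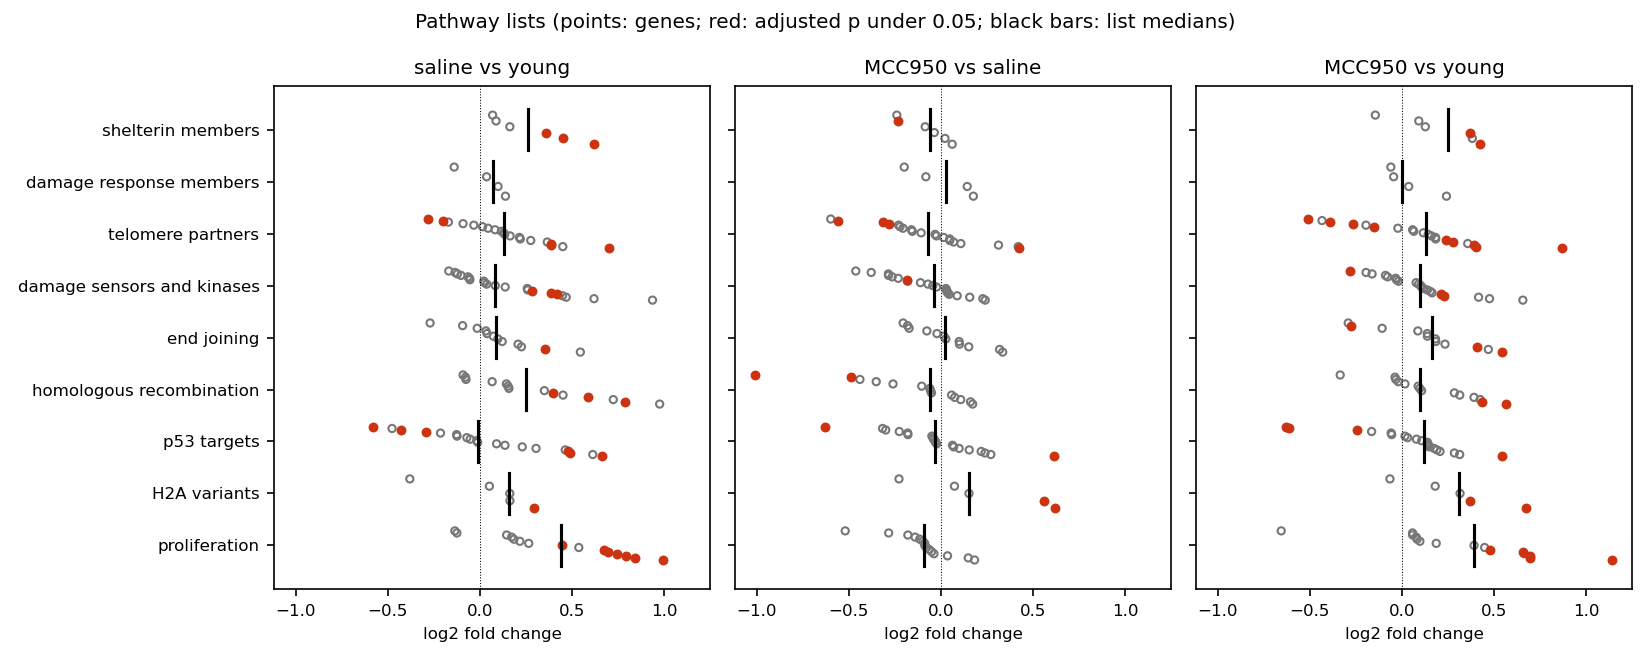
Log2 fold changes (horizontal axes) of the genes in each list in the 3 comparisons, with 1 point per gene, red for an adjusted p under 0.05 and a black bar for the list's median. For saline against young the median of the shelterin genes is 0.26 and that of the proliferation genes 0.44, and for MCC950 against saline these medians are -0.06 and -0.09.

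The second comparison asked what MCC950 changed in middle-aged mice. Of the 10 members, *Pot1a* fell and none rose, where 16.8% of the genes tested passed in either direction and 4.86% were lower. Over the 6 shelterin genes the median log2 fold change was -0.06 and over the 4 damage response genes 0.03, against 0 over all genes tested. In 0 of the 10 members did the MCC950 and saline libraries separate without overlap, as 1.74% of all genes tested did. The log2 fold change was above 0 in 4 of the 10, against 50.5% of all genes, and 0 had an unadjusted p under 0.05 with over 2-fold change, against 2.71%.

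*Pot1a* was at 4.33 CPM in the lowest, 4.52 in the median and 5.62 in the highest MCC950 library, against 4.80, 5.35 and 6.40 CPM in the saline libraries. In 6 of 8 MCC950 libraries it lay below all saline libraries, and replicate 6 was the highest. *Pot1a* fell by 0.23 on the log2 scale (standard error 0.08, edgeR adjusted p = 0.0423), or 14.9%. This call passed the threshold narrowly: the adjusted p ranged from 0.0140 to 0.103 with 1 saline or MCC950 library left out, and of these fits it stayed under 0.05 only without saline replicate 1, saline replicate 5 or MCC950 replicate 6.

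In the same libraries the 12 proximal tubule markers had a mean log2 CPM of 7.91 with MCC950 and 7.04 with saline (two-sided exact permutation test, p = 0.00280, adjusted p = 0.00699 over 15 tests). All 12 had a log2 fold change above 0, and 7 of the 12 passed in edgeR as higher with MCC950. Mitochondrial genes took a mean of 56.4% of counts with MCC950 and 69.6% with saline (two-sided exact permutation test, p = 0.000622). Once the proximal tubule score was in the fit, the log2 fold change of *Pot1a* was -0.18 (edgeR adjusted p = 0.308), and the number of all genes called went from 2753 to 731.

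The other shelterin genes did not pass. *Pot1b* ranged from 12.1 to 29.2 CPM with MCC950 (median 14.8), against a saline median of 19.4, with 4 of 8 libraries below all saline libraries and 1, replicate 6, above them all. Its log2 fold change was -0.24 (edgeR adjusted p = 0.357, 95% interval -0.59 to 0.11), and without MCC950 replicate 6 it was -0.41 (adjusted p = 0.0382). The log2 ratio of *Pot1b* to *Pot1a* ranged from 1.40 to 2.38 with MCC950 and had a mean of 1.77.

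*Acd* had 7.57, 8.91 and 10.2 CPM as lowest, median and highest MCC950 values, a log2 fold change of 0.06 from saline (edgeR adjusted p = 0.633, 95% interval -0.10 to 0.22). *Tinf2* had 8.21, 10.0 and 15.0 CPM and a log2 fold change of -0.09 (edgeR adjusted p = 0.680, 95% interval -0.35 to 0.17). *Terf2* was spread least for its level, from 13.0 to 14.2 CPM, with a log2 fold change of -0.04 (95% interval -0.15 to 0.08), and *Terf1* ranged from 3.39 to 4.68 CPM, with a log2 fold change of 0.02 (95% interval -0.23 to 0.27). For *Acd*, *Terf1* and *Terf2* the intervals leave room for changes of no more than 0.27 in either direction.

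Of the damage response genes, *Rad50* and *Nbn*, subunits of the same complex, had values on opposite sides of 0, and neither passed. *Rad50* ranged from 6.47 to 9.84 CPM with MCC950 (median 8.20, saline median 9.37), and 5 of 8 libraries lay below all saline libraries. Its log2 fold change was -0.20 (edgeR adjusted p = 0.150, 95% interval -0.39 to -0.0037). In limma voom *Rad50* did pass (adjusted p = 0.0136). *Nbn* ranged from 6.32 to 8.22 CPM (median 7.24, saline median 6.25), with 4 of 8 libraries above all saline libraries and a log2 fold change of 0.18 (edgeR adjusted p = 0.162, 95% interval -0.0016 to 0.35).

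*Atm* ranged from 9.48 to 12.2 CPM with MCC950, with a log2 fold change of -0.08 (edgeR adjusted p = 0.451, 95% interval -0.23 to 0.06), while its neighbour *Npat* fell by 0.25 on the log2 scale (adjusted p = 0.0396). *H2ax* was spread more widely with MCC950 than with saline, from 5.91 to 11.2 CPM against 6.71 to 8.71. In 4 of 8 MCC950 libraries it was above all saline libraries and in 2 below them all, and the log2 fold change was 0.14 (edgeR adjusted p = 0.529, 95% interval -0.16 to 0.44).

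The lists of the wider pathway are read against the 16.8% of all genes that passed. Of 20 telomere partners, 1 rose and 3 fell: the telomerase component *Nop10* (log2 fold change 0.43, edgeR adjusted p = 0.0146), the helicase *Wrn* (-0.28, 0.00951) and *Dclre1b* (-0.31, 0.0291), the nuclease Apollo that works at telomere ends, were those of lowest p. Of 21 damage sensors and kinases, *Ppm1d*, a phosphatase that ends ATM signalling, fell (-0.18, 0.0472) and none rose. *Mre11a* had a log2 fold change of -0.18 (adjusted p = 0.211), *Mdc1* of -0.23 (0.0823), *Prkdc* of 0.24 (0.0614), *Terf2ip* of 0.07 (0.578), *Atr* of -0.04 (0.780), *Trp53bp1* of 0.04 (0.636), *Chek1* of -0.29 (0.641) and *Chek2* of 0.03 (0.937), and none of these passed.

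Of the repair genes, 0 of 12 of end joining passed and 2 of 14 of homologous recombination fell, *Dna2* (log2 fold change -0.49, edgeR adjusted p = 0.0201) and *Rad51b* (-1.01, 0.0426). Of 20 p53 targets, *Gadd45a* rose (0.61, 0.0250) and *Trp53inp1* fell (-0.63, 0.0120). Of the 5 H2A variants beside *H2ax*, *H2aj* (0.62, 0.0133) and *Macroh2a2* (0.56, 0.0373) rose. None of the 15 proliferation genes passed, with a median of -0.09.

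The third comparison set MCC950-treated middle-aged mice against young mice, and it shares its libraries with both others. Here *Acd* and *Tinf2* rose and no member fell, where 38.3% of the genes tested passed in either direction and 21.8% were higher. The members' median log2 fold change was 0.11, against 0.08 over all genes tested, and it was above 0 in 7 of 10 members, against 58.1% of all genes. None of the members separated the groups without overlap (7.94% of all genes) or had an unadjusted p under 0.05 with over 2-fold change (8.37%). *Acd* lay above all young libraries in 7 of 8 MCC950 libraries, with a log2 fold change of 0.42 (standard error 0.08, edgeR adjusted p = 0.000646), and with the podocyte score in the fit it was 0.14 (adjusted p = 0.850). That score was lower in every MCC950 library than in any young one, so this fit cannot separate it from the groups. *Tinf2* lay above them in 5 of 8, with a log2 fold change of 0.37 (standard error 0.13, edgeR adjusted p = 0.0359), and its adjusted p ranged from 0.0213 to 0.130 with 1 library left out. This call for *Tinf2* was lost in DESeq2 (adjusted p = 0.0593), in limma voom (0.0912), with DESeq2's size factors (0.0690), in a fit of these groups alone (0.0912) and with the myeloid score (0.200) or the podocyte score (0.900) as a covariate. It was lost too with the replicate number as a block. Its host gene *Gmpr2* rose by 0.22 in this comparison (adjusted p = 0.0467).

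Markers of other cells and the mitochondrial share moved with these groups too. Of the markers, 14 of 15 of podocytes, 10 of 10 endothelial, 8 of 9 mesangial and smooth muscle and 8 of 8 collecting duct markers passed as lower with MCC950 than in young libraries. Those passing as higher were 7 of 12 proximal tubule, 5 of 10 B and plasma cell and 4 of 12 myeloid markers. All markers of these last lists had a log2 fold change above 0. Of all genes tested, 38.3% passed in either direction and 21.8% as higher. Mitochondrial genes took a mean of 56.4% of counts against 69.3% in young libraries (two-sided exact permutation test, p = 0.00999, adjusted p = 0.0187 over 15 tests). Beyond the fits with marker scores, the part of these differences in the values of *Acd* and *Tinf2* was not tested.

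*Pot1b* had a log2 fold change of 0.38 from young (edgeR adjusted p = 0.102, 95% interval 0.0030 to 0.76) and *Pot1a* of -0.14 (adjusted p = 0.167), with 5 of 8 MCC950 libraries of *Pot1a* below all young ones. *Terf2* was at 0.13 (adjusted p = 0.102) and *Terf1* at 0.09 (0.598). *H2ax* was at 0.24 (edgeR adjusted p = 0.221, 95% interval -0.08 to 0.56), *Nbn* at 0.04 (0.777), *Atm* at -0.05 (0.653) and *Rad50* at -0.06 (0.658). None of the 4 damage response genes passed in the main fit of any of the 3 comparisons. Of all genes tested, 24.6% passed for saline against young, 16.8% for MCC950 against saline and 38.3% for MCC950 against young.

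The lists by role are read against the 38.3% of all genes that passed between young and MCC950 libraries. Of 20 telomere partners, 5 rose and 4 fell, the telomerase component *Nhp2* (log2 fold change 0.87, edgeR adjusted p = 0.000363), the chromatin remodeller *Atrx* (-0.51, 0.000128) and *Wrn* (-0.27, 0.00543) having the lowest p. Of the 21 damage sensors and kinases, *Kat5* (0.21, 0.0171) and the ubiquitin ligase *Rnf8* (0.23, 0.0380) rose and *Rnf168* (-0.28, 0.00264), the ligase that acts after RNF8, fell. *Terf2ip* (-0.02, 0.848), *Mre11a* (0.08, 0.590), *Atr* (-0.02, 0.896), *Chek1* (0.16, 0.789), *Chek2* (-0.03, 0.916), *Mdc1* (-0.20, 0.109), *Trp53bp1* (-0.09, 0.244) and *Prkdc* (0.14, 0.247) did not pass. Of the 12 end joining genes, *Nhej1* (0.54, 0.0374) and *Xrcc5* (0.41, 0.0404), which encodes Ku80, rose and *Rif1* (-0.27, 0.00433) fell. Of 14 homologous recombination genes, *Sem1* (0.57, 2.24e-05) and *Brca2* (0.43, 0.0174) rose and 0 fell. Of 20 p53 targets, 1 rose, *Bax* (0.54, 0.000409), and 3 fell, *Rrm2b* (-0.61, 2.24e-05) and *Fas* (-0.63, 0.000839) among them. Of the 5 other H2A variants, *Macroh2a1* (0.37, 0.000743) and *H2aj* (0.67, 0.00368) rose. Of 15 proliferation genes, 5 rose and 0 fell, with *Mcm6* (0.655, 0.000571), *Mcm7* (0.48, 0.000762) and *Mcm5* (0.69, 0.00941) among them. *Npat*, the neighbour of *Atm*, fell by 0.42 on the log2 scale (adjusted p = 0.000832).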

How the data were processed

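The authors used Trim Galore for trimming, Bowtie2 for alignment to mm10 and featureCounts for counting. The deposited per-library tables hold whole read counts per gene, by Entrez Gene number. A table of normalized values was not used. Annotation release, strand setting and treatment of multiply aligned reads were not given in the sources used here. Names and positions came from RefSeq on GRCm38.p6, and exon lengths from GENCODE, as the joined exons of all transcripts of a gene.

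Counts of all 21 libraries were fitted together in edgeR 4.0.16 (R 4.3.3; TMM, filterByExpr by group, quasi-likelihood F test), with Benjamini-Hochberg adjustment over 16377 genes. CPM and RPKM are TMM-scaled. Library totals and scores were tested by two-sided exact permutation in scipy 1.17.1 (Python 3.11.15). Alternatives used DESeq2 1.42.0, the tool the study names, limma 3.58.1 and other settings, and each library was left out in turn. The workflow was tested on simulated data for saline against young. It called 89 of 100 genes changed 2-fold, 54 of 100 genes changed 1.5-fold and 7 unchanged genes. A change of the size seen in most members can therefore be missed. Counting error is smallest in the deepest libraries. The edgeR p-values weigh a group difference against the spread between libraries, each from an individual mouse. In that spread, differences between mice, capture and counting cannot be told apart.

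The members and lists were chosen with earlier results of these data known. Named beside the members were *Terf2ip*, *Mre11a*, *Atr*, *Chek1*, *Chek2*, *Mdc1*, *Trp53bp1* and *Prkdc*, up to 3 genes of lowest p per list and comparison among those passing, the 3 genes most like each member called in saline against young, and overlapping genes or genes starting within 1 kb. Protein sequences were not analysed here.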

Additional observations from a re-analysis of the deposited data

Results flagged for a closer look

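In 3 member and group combinations a single MCC950 library stood apart, by a gap to its nearest neighbour that made up more than 0.526 of the group's range (Dixon's 95% critical value for 8 libraries). *Pot1b* was at 29.2 CPM in MCC950 replicate 6, and the next library was at 18.6 CPM. *Pot1a* was at 5.62 CPM in that same replicate, against 4.88 in the next. *Tinf2* was at 15.0 CPM in MCC950 replicate 7, against 10.9 in the next. Chance alone gives such a gap in about 1 in 20 groups, and 30 combinations of member and group were looked at.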

How the results depend on the processing

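Alternatives moved the number of members called as follows, and the cause was not tested unless named. For saline against young, where 3 members were called, the podocyte score as a covariate left 0, the myeloid score 1 (*Acd*), and an unadjusted p under 0.05 with over 2-fold change 0. With the podocyte score 0 of all genes tested were called, against 4034 in the main fit. With 1 library left out the number ranged from 1 to 4 (1 without young replicate 3, and 4 without young replicate 6, with *Terf2* added). For MCC950 against saline, with 1 called, limma voom called 2 (*Pot1a* and *Rad50*), while no filter on low counts, thinned libraries, the proximal tubule score and the 2-fold rule each called 0. With 1 library left out it ranged from 0 to 2. For MCC950 against young, with 2 called, DESeq2, limma voom, DESeq2's size factors, a fit of these groups alone and the myeloid score each called 1, *Acd*, while the podocyte score and the 2-fold rule called 0. With 1 library left out it ranged from 1 to 2. No member changed by over 2-fold in any comparison, whereas 6.96%, 2.71% and 8.37% of all genes tested passed that rule.

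Libraries share only a replicate number. The correlation of deviations between same-numbered libraries lay between -0.061 and 0.35 for saline and young (3 of 12 libraries correlated best with their own number), between -0.14 and 0.33 for MCC950 and saline (4 of 14) and between -0.013 and 0.40 for MCC950 and young (4 of 12). With the replicate number as a block, 3 members were called for saline against young, 0 for MCC950 against saline (*Pot1a* adjusted p = 0.0992 in edgeR) and 1 for MCC950 against young (*Acd*, adjusted p = 0.0498), where *Nbn* had a log2 fold change of -0.041.

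Signs turned only for log2 fold changes that had not passed. For saline against young these were *Atm* with thinned libraries (-0.0092) and with the podocyte score (-0.11), *Nbn* with the podocyte score (0.23), and *Terf1* (-0.0066) and *Rad50* (-0.039) with the myeloid score. For MCC950 against saline they were *Terf1* in a fit of these groups alone (-0.00040) and with the podocyte score (-0.088), and, with the proximal tubule score, *Acd* (-0.013), *Tinf2* (0.20) and *Pot1b* (0.10). For MCC950 against young they were *Nbn* with DESeq2 (-0.0090) and its size factors (-0.0043), and, with the proximal tubule score, *Rad50* (0.084) and *Atm* (0.0060). With 1 library left out, the log2 fold change for saline against young ranged from -0.014 to 0.18 in *Terf1*, from -0.0035 to 0.15 in *H2ax* and from -0.011 to 0.068 in *Atm*. It ranged from -0.030 to 0.050 in *Terf1* for MCC950 against saline, and from -0.0053 to 0.18 in *Terf1* and from -0.045 to 0.093 in *Nbn* for MCC950 against young. *Pot1b* was called for MCC950 against young with the proximal tubule score (0.68, edgeR adjusted p = 0.00639).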
